A study of Homo sapiens with 6 samples.

Results

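The 50 genes described here are Wnt ligands, their receptors, the proteins that relay the signal and the nuclear partners of beta-catenin, taken by symbol from a table of 19785 genes. All 50 symbols were found. The comparison is between SET-2 OTX P/R cells, a derivative described as OTX persister and resistant, and SET-2 Parental cells. SET-2 is an established human leukemia line of megakaryoblastic character, labelled as secondary acute myeloid leukemia, and OTX is taken to stand for birabresib, an inhibitor of BET proteins. Each group had 3 libraries of total RNA, described as biologic replicates, from untreated cultures in exponential growth in RPMI1640 with fetal bovine serum, so that neither group was exposed to drug when harvested. The labels name 1 derivative, so that resistance and any other change this derivative acquired cannot be told apart.

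Wnt proteins are lipid-modified ligands that bind a Frizzled receptor together with LRP5 or LRP6 at the cell surface. Without a ligand, a destruction complex built on axin marks beta-catenin for degradation; with a ligand, Dishevelled proteins recruit axin to the receptor and beta-catenin accumulates, enters the nucleus and joins a TCF or LEF factor in place of a TLE corepressor. The pathway is known for its role in the self-renewal of blood stem cells and of some leukemias, and the series title names beta-catenin and TCF7L2, both members here, together with JMJD6 and MYC, for resistance to BET inhibitors.

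A level below is the authors' normalized abundance of a gene, taken as a quantity per length of transcript on a linear scale. Levels of different genes can be compared only roughly, since the unit is not stated and the estimate of a single gene can fail. The table is quantile-normalized: the library sums lay between 419375 and 419437, and the sequencing depth is unknown. Log2 values correlated at 0.986 to 0.988 between libraries of a group and at 0.948 to 0.949 between the groups. Of 8 megakaryoblastic and progenitor markers, ITGA2B, ITGB3, GP9, GP1BA, CD34 and KIT had a mean of at least 1, PF4 was listed at 0 in every library, and the summed level was 348 to 355 in OTX P/R and 394 to 415 in parental libraries. That sum joins opposite changes, since 4 of its 6 tested markers were higher and 2 lower. ITGB3 was at 21.0 ± 1.04 in OTX P/R and 4.83 ± 0.585 in parental cells, GP1BA at 24.5 ± 0.996 and 7.07 ± 0.280, CD34 at 63.4 ± 1.63 and 32.6 ± 3.34, and GP9 at 51.0 ± 2.60 and 34.8 ± 1.22, while the abundant ITGA2B was at 137.7 ± 3.73 in OTX P/R and 216 ± 11.5 in parental cells and KIT at 54.3 ± 1.30 and 106 ± 8.96. Markers of T and NK cells summed to 29.4 to 31.5 in OTX P/R and 64.6 to 71.4 in parental libraries, most of it NKG7 (29.6 ± 1.31 in OTX P/R and 62.2 ± 2.64 in parental cells) with some CD3D (0.593 ± 0.226 and 5.24 ± 1.05), while CD3E, CD3G and CD247 stayed under 0.1. The B cell marker MS4A1, the myelomonocytic markers CD14 and MPO, the stromal marker COL3A1 and the epithelial markers EPCAM and KRT19 were at or near 0. The other lists summed to 6.45 to 7.17 in OTX P/R and 8.45 to 9.16 in parental libraries for B cells, where CD79A was the tested gene, and to 80.9 to 103 and 86.9 to 100.3 for myelomonocytic cells, nearly all LYZ. Stromal and endothelial markers summed to 17.0 to 18.2 in OTX P/R and 7.49 to 8.77 in parental libraries, mostly PECAM1 with COL1A1 at 1.92 ± 0.0654 and 0.0732 ± 0.0362, and epithelial markers to 13.3 to 15.7 and 8.76 to 10.6, mostly KRT18. The part of these markers in the Wnt results was not tested. A value of 0 in this table can be a failed estimate, since TUBB, a tubulin gene that all dividing cells use, was listed at 0 in every library.

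Of the 50 Wnt genes, 32 reached a mean level of 1 over the 6 libraries and were tested, and 13 of them passed. Higher in OTX P/R cells were the ligands WNT3 and WNT11, the ligand-modifying enzyme PORCN, the receptors FZD5 and FZD6, DVL1, AXIN1, TNIK and CTNNBIP1. Lower were the receptors FZD4 and LRP5, the inhibitor NKD2 and the transcription factor LEF1. These 9 higher and 4 lower genes make up 40.6% of the tested members, where 36.1% of all 10741 tested genes were called (18.6% higher and 17.5% lower; limma on log2(value + 1), adjusted p under 0.05), so the share is near the background. No overlap between the groups was seen for 16 of the 32, and for 51.6% of all tested genes. The median log2 fold change was 0.05 over the tested members and 0.02 over all tested genes. By layer, 4 of 10 tested ligands and receptors were higher and 2 lower, and of 10 tested nuclear partners 2 were higher and 1 lower. In bulk RNA, fewer cells that express a gene and less RNA per cell cannot be told apart.

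**Figure D1:**
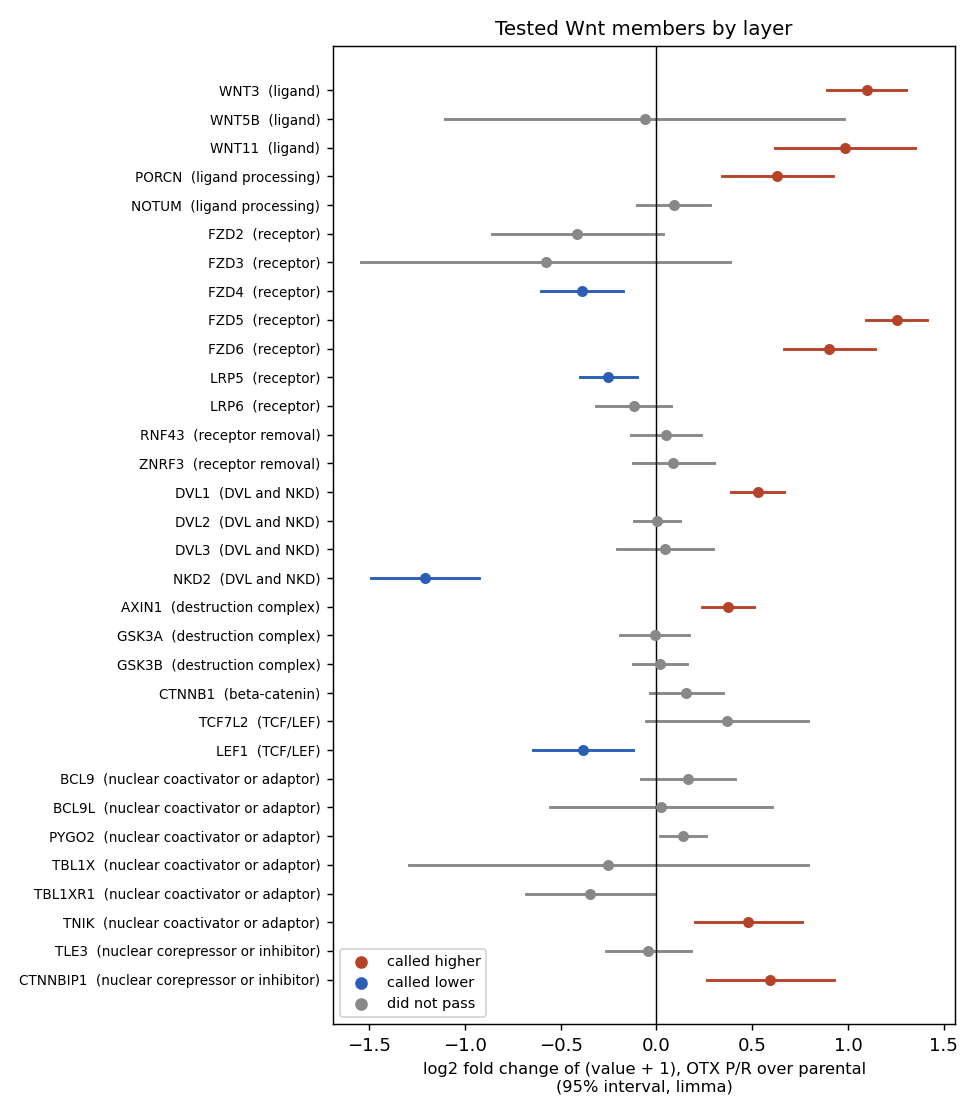
Log2 fold change of (value + 1), OTX P/R over parental, with its 95% interval from limma (x axis), for the 32 tested Wnt genes grouped by layer (y axis). The 9 genes called higher lie right of 0, led by FZD5 at 1.26, and the 4 called lower lie left of it, led by NKD2 at -1.21, while WNT5B, FZD3 and TBL1X have the widest intervals.

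Among the ligands, WNT3, which signals through beta-catenin in many tissues, had levels of 5.22, 4.98 and 5.41 in OTX P/R libraries, against 1.62, 2.11 and 1.98 in parental libraries. The lowest OTX P/R library was above the highest parental one by more than the spread within either group. The log2 fold change was 1.10 ± 0.08 SE (limma adjusted p = 2.47e-04). WNT11, a ligand known mainly for signalling without beta-catenin, had levels of 6.17, 6.15 and 8.46 in OTX P/R libraries and 3.61, 2.60 and 2.78 in parental libraries, again without overlap. Its log2 fold change was 0.98 ± 0.15 (adjusted p = 0.00378), with OTX P/R replicate 3 the highest.

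WNT5B, also a ligand of the branches that do not use beta-catenin, was the ligand with the highest level, and here 1 library decided the result. Its levels were 37.7, 37.7 and 12.1 in OTX P/R libraries and 25.9, 27.1 and 28.3 in parental libraries, so that OTX P/R replicates 1 and 2 lay above the parental range and replicate 3 lay far below it. The gene did not pass (log2 fold change -0.06, interval from -1.10 to 0.98, limma adjusted p = 0.924). Without OTX P/R replicate 3 the log2 fold change was 0.46 and the gene was called higher (adjusted p = 0.00534). The same library moved the make-up of the ligand pool: WNT5B held 75.2%, 76.01% and 45.2% of the summed level of the 8 ligands in OTX P/R libraries and 79.8%, 81.4% and 81.9% in parental libraries.

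The other ligands were low. WNT10B, known in blood-forming and bone tissue, had levels of 0.816, 0.466 and 0.563 in OTX P/R libraries and 1.10, 1.33 and 1.25 in parental libraries; the groups did not overlap, but its mean of 0.921 left it out of the test. Tested without the filter on low values, it was lower in OTX P/R cells (log2 fold change -0.47, adjusted p = 0.0179). WNT2B lay between 0.161 and 0.211 in OTX P/R and between 0.164 and 0.223 in parental libraries, and WNT5A stayed under 0.1 in every library. WNT7B was listed at 0 in every library, and WNT10A in all but parental replicate 1, where it read 0.00181.

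PORCN, the acyltransferase of the endoplasmic reticulum that attaches the lipid every Wnt ligand needs, had levels of 5.26, 5.45 and 4.95 in OTX P/R libraries and 3.62, 2.41 and 3.10 in parental libraries. The groups did not overlap, and the log2 fold change was 0.63 ± 0.12 SE (limma adjusted p = 0.00878). WLS, the carrier that takes lipid-modified Wnt proteins to the surface, was under 0.01 in all libraries except parental replicate 1, at 0.143, and was not tested. NOTUM, a secreted enzyme that removes the lipid, did not pass, with 1.99, 2.20 and 1.75 in OTX P/R libraries and 1.80, 1.74 and 1.84 in parental libraries.

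**Figure D2:**
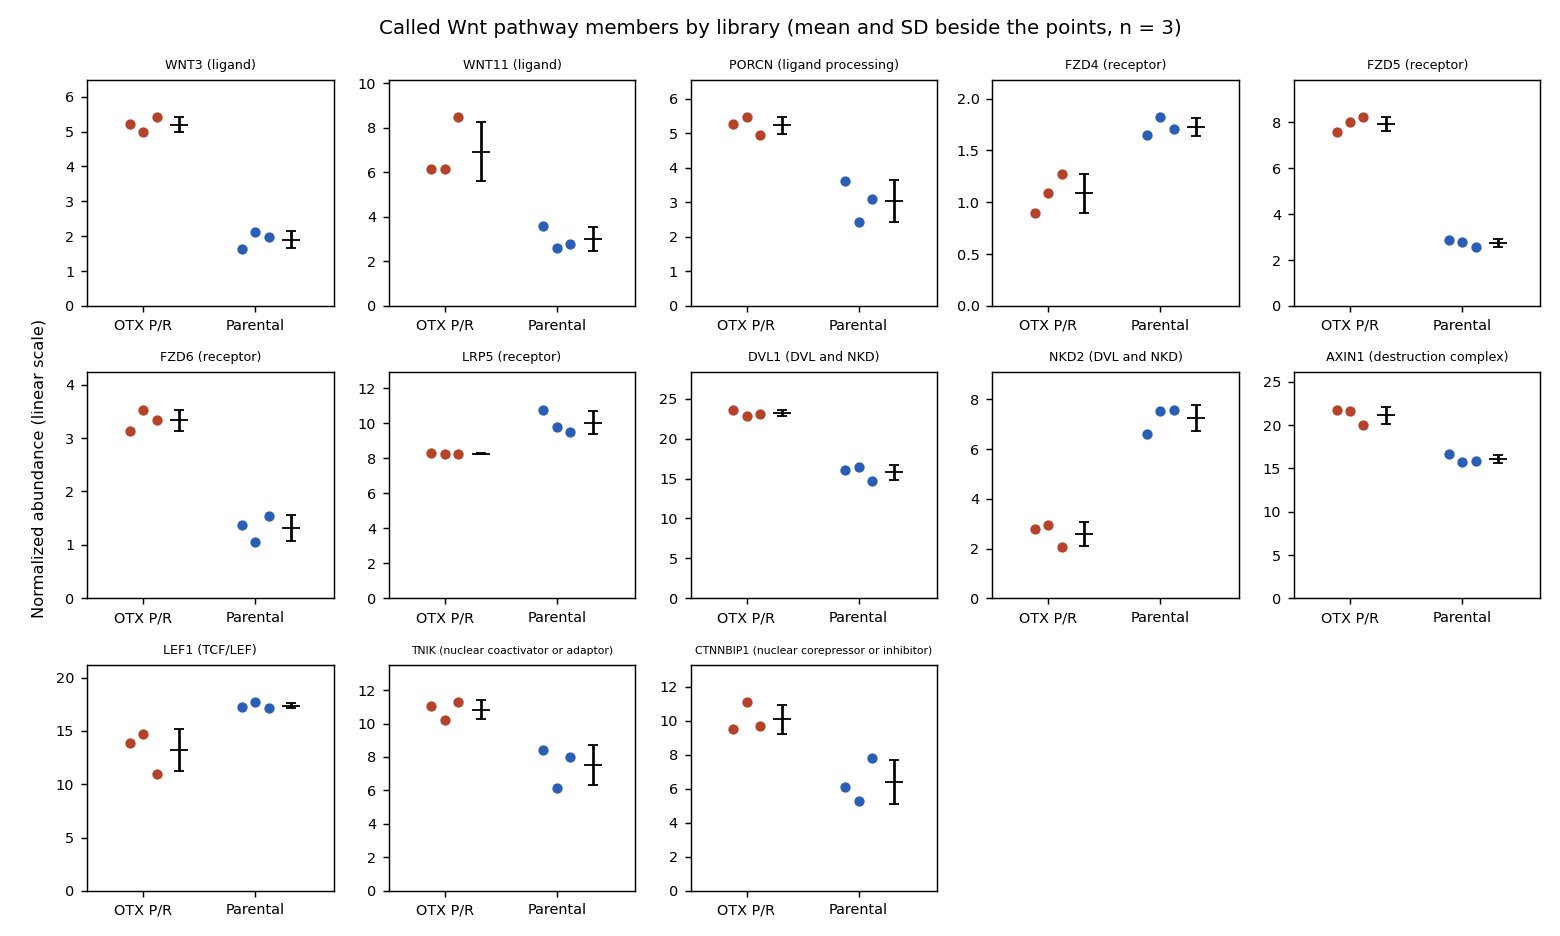
Normalized abundance on a linear scale (y axis) in each library of OTX P/R (left, red) and parental cells (right, blue) for the 13 called Wnt genes, with the mean and SD of each group (n = 3) beside the points. The groups do not overlap in any of the 13 panels; FZD5 lies at 7.59 to 8.22 in OTX P/R and 2.56 to 2.89 in parental libraries, and LRP5, the smallest of the called changes, lies at 8.24 to 8.29 and 9.53 to 10.8.

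Of the Frizzled receptors, FZD5 had the largest rise of the 32 tested genes. FZD5 is a receptor for several Wnt ligands, and its levels were 7.59, 8.01 and 8.22 in OTX P/R libraries and 2.89, 2.79 and 2.56 in parental libraries. Its mean was 2.89 times as high in OTX P/R cells, with a log2 fold change of 1.26 ± 0.06 SE (limma adjusted p = 5.80e-05). FZD6, a receptor known for planar cell polarity, had levels of 3.13, 3.53 and 3.33 in OTX P/R libraries and 1.37, 1.06 and 1.54 in parental libraries, a log2 fold change of 0.90 ± 0.10 (adjusted p = 9.24e-04). FZD4, a receptor for norrin as well as for Wnt ligands, went the other way, with 0.898, 1.09 and 1.27 in OTX P/R libraries and 1.65, 1.82 and 1.71 in parental libraries. Its log2 fold change was -0.39 ± 0.09 (adjusted p = 0.0171), and the call was lost without OTX P/R replicate 2 (0.0516), parental replicate 2 (0.0527) or parental replicate 3 (0.0501).

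FZD2 did not overlap between the groups either, with 2.17, 2.69 and 2.58 in OTX P/R libraries and 3.00, 3.03 and 5.14 in parental libraries, but missed the threshold (log2 fold change -0.41 with a 95% interval of -0.86 to 0.03, adjusted p = 0.130). FZD3 varied within both groups, with 0.586, 0.502 and 2.01 in OTX P/R libraries and 0.828, 3.26 and 2.06 in parental libraries, and its interval of -1.54 to 0.39 spans 0. The remaining Frizzled genes were too low to test. FZD1 had 0.798, 0.768 and 0.730 in OTX P/R libraries against 0.671, 0.531 and 0.625 in parental libraries, and FZD7 0.354, 0.459 and 0.429 against 0.807, 0.482 and 0.765. FZD8 was at 0.117, 0.127 and 0.128 in OTX P/R libraries and at 0.00863, 0 and 0.00788 in parental libraries; when low genes were also tested it was called higher (adjusted p = 1.04e-04), at a log2 fold change of only 0.16 on the log2(value + 1) scale. FZD9 stayed under 0.1 in OTX P/R libraries and reached at most 0.121 in parental libraries.

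The summed level of the 9 Frizzled genes was 15.7, 17.2 and 18.7 in OTX P/R libraries and 11.3, 13.0 and 14.5 in parental libraries, without overlap. FZD5 held 46.3% ± 2.29 of that sum in OTX P/R and 21.5% ± 3.90 in parental cells (SD, n = 3 each), and FZD6 held 19.4% ± 1.45 and 10.3% ± 1.99. FZD2, the Frizzled gene with the highest mean share in parental cells, held 14.4% ± 1.06 in OTX P/R and 28.4% ± 6.34 in parental cells, and FZD4 6.29% ± 0.539 and 13.4% ± 1.44. These shares describe the libraries and were not tested.

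**Figure D3:**
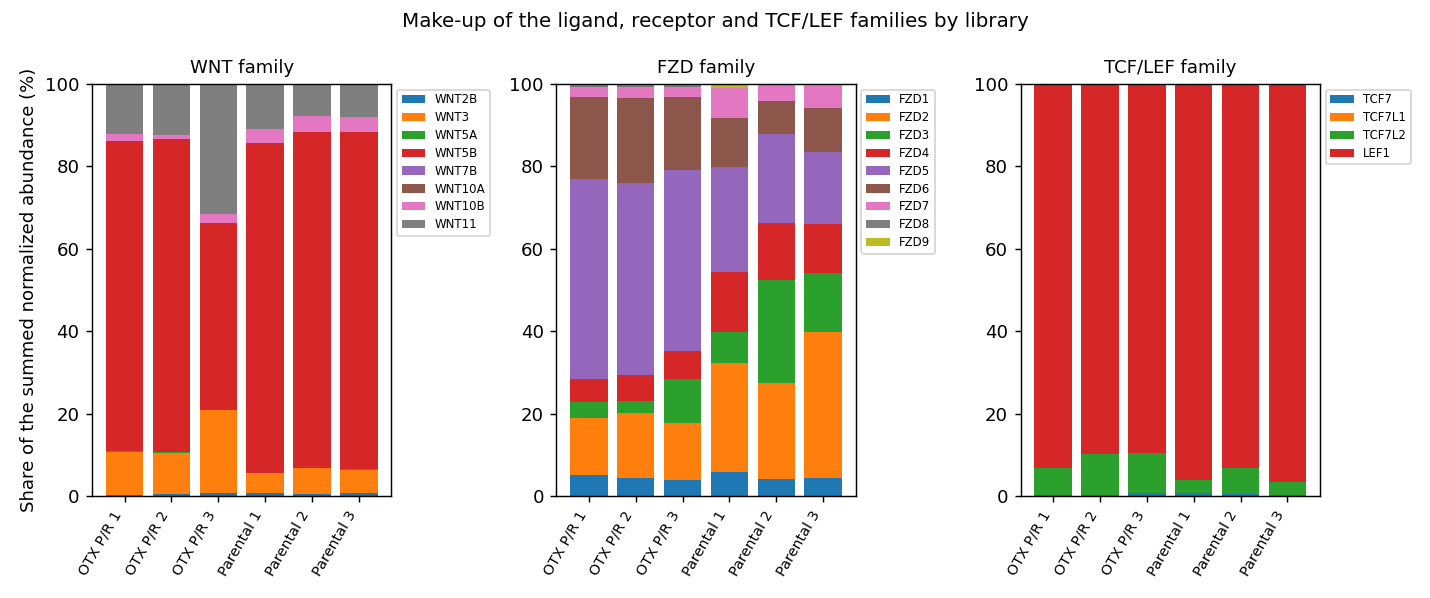
Share of the summed normalized abundance (y axis, percent) that each gene holds within the ligand (WNT), receptor (FZD) and TCF/LEF families, in 3 OTX P/R libraries (left) and 3 parental libraries (right). FZD5 takes 43.9% to 48.4% of the Frizzled sum in OTX P/R and 17.7% to 25.5% in parental libraries, OTX P/R replicate 3 has the smallest WNT5B share, and LEF1 is most of the TCF/LEF sum in every library.

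The co-receptors were lower or did not pass. LRP5 had levels of 8.29, 8.25 and 8.24 in OTX P/R libraries and 10.8, 9.79 and 9.53 in parental libraries, a log2 fold change of -0.25 ± 0.06 SE (limma adjusted p = 0.0223). The call was lost without OTX P/R replicate 1 (0.0644), replicate 2 (0.0682) or replicate 3 (0.0647). LRP6, the other co-receptor, had 1.85 ± 0.0133 in OTX P/R and 2.10 ± 0.251 in parental cells and did not pass (adjusted p = 0.301). RNF43 and ZNRF3, the membrane ubiquitin ligases that take Frizzled receptors off the surface and are themselves raised by the pathway in the intestine, did not pass, with log2 fold changes of 0.05 (95% interval -0.13 to 0.23) and 0.09 (-0.12 to 0.30).

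Promoters of the 2 members with the largest rises, FZD5 and WNT3, and of LEF1, the called gene of the TCF/LEF family, are shown to set their sequences beside each other. Each is the 250 bases before a start site given by RefSeq on GRCh38.p14, read on the strand of the gene. They are chr2:207769907-207770156 (minus) for FZD5, chr17:46818693-46818942 (minus) for WNT3 and chr4:108166302-108166551 (minus) for LEF1. For each gene 1 start was used, and whether it is the main start of the gene was not tested. Capitals mark CCAAT or its reverse complement ATTGG, and GGGCGG or its reverse complement CCGCCC, where overlapping copies run together.
FZD5: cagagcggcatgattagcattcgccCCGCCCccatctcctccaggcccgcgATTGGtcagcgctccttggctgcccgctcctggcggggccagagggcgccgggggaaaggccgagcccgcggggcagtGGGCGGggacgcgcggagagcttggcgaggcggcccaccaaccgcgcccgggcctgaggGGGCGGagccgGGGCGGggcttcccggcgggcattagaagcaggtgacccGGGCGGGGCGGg
WNT3: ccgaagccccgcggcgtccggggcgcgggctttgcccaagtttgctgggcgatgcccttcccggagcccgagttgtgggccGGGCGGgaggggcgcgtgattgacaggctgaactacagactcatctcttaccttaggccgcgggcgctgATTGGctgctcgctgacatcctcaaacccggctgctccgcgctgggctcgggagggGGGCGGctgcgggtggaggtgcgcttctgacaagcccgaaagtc
LEF1: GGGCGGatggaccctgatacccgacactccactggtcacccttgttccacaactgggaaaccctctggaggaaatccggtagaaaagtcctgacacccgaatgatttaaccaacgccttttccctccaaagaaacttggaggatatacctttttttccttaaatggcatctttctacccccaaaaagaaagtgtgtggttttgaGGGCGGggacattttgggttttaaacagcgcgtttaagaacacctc
The FZD5 stretch is 76.8% G or C and holds 6 copies of GGGCGG or CCGCCC and 1 of ATTGG, the WNT3 stretch is 68.8% G or C with 2 and 1 copies, and the LEF1 stretch is 47.6% G or C with 2 and none. Over all 35116 RefSeq promoters the median was 58.0%, and 42.6% held a GGGCGG or CCGCCC and 32% a CCAAT or ATTGG in the same window.

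The layer below the receptors also moved in part. DVL1, a Dishevelled protein that carries the signal from Frizzled to axin, had levels of 23.6, 22.8 and 23.1 in OTX P/R libraries and 16.1, 16.5 and 14.7 in parental libraries. Its log2 fold change was 0.53 ± 0.06 SE (limma adjusted p = 9.75e-04). DVL2 and DVL3, the other Dishevelled proteins, did not pass, at 21.9 ± 0.900 in OTX P/R and 21.8 ± 0.261 in parental cells for DVL2 (log2 fold change 95% interval -0.12 to 0.13) and 13.5 ± 1.85 and 13.0 ± 0.832 for DVL3 (-0.21 to 0.30). DVL1 thus held 39.6% ± 1.44 of the summed level of the Dishevelled genes in OTX P/R and 31.2% ± 1.94 in parental cells.

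NKD2, a Naked cuticle protein that binds Dishevelled and restrains the pathway, had the largest fall of the 32 tested genes. Its levels were 2.78, 2.94 and 2.05 in OTX P/R libraries and 6.63, 7.53 and 7.58 in parental libraries, a log2 fold change of -1.21 ± 0.12 SE (limma adjusted p = 5.97e-04). NKD2 lies on chromosome 5 among genes that were lower with it: of its 19 nearest tested neighbours, up to 12 on each side, 14 were called lower and 2 higher, with a median log2 fold change of -0.71. Its relative NKD1, a feedback target of the pathway in other tissues, was between 0.195 and 0.256 in OTX P/R and between 0.209 and 0.304 in parental libraries and was not tested.

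In the destruction complex, AXIN1, its scaffold, was higher, with 21.8, 21.7 and 20.0 in OTX P/R libraries and 16.6, 15.8 and 15.9 in parental libraries (log2 fold change 0.37 ± 0.05 SE, limma adjusted p = 0.00326). AXIN2, the scaffold that beta-catenin itself induces and that is widely used as a readout of the pathway, was listed at 0 in 5 libraries and at 0.00719 in OTX P/R replicate 3. The kinases that mark beta-catenin did not pass: GSK3A was at 64.8 ± 2.44 in OTX P/R and 65.4 ± 5.84 in parental cells (log2 fold change 95% interval -0.19 to 0.17), and GSK3B at 7.01 ± 0.311 and 6.90 ± 0.201 (-0.12 to 0.16). On this per-length scale GSK3A made up 90.2% ± 0.704 of the summed GSK3 level in OTX P/R and 90.4% ± 0.873 in parental cells.

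CTNNB1, which encodes beta-catenin, had levels of 45.9, 43.6 and 46.9 in OTX P/R libraries and 40.4, 37.1 and 45.0 in parental libraries. Parental replicate 3 lay within the OTX P/R range, and the difference missed the threshold (log2 fold change 0.16, interval from -0.03 to 0.35, limma adjusted p = 0.173; 0.0549 to 0.372 with each library left out). These are RNA levels, and beta-catenin is controlled mostly through the stability of its protein, which was not measured here.

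The TCF/LEF factors bring beta-catenin to DNA, and LEF1 was the main one in both lines. LEF1 had levels of 13.8, 14.8 and 10.98 in OTX P/R libraries and 17.2, 17.7 and 17.2 in parental libraries, without overlap. Its log2 fold change was -0.38 ± 0.11 SE (limma adjusted p = 0.0356). The call was lost without OTX P/R replicate 1 (0.0629), parental replicate 1 (0.0827), parental replicate 2 (0.0928) or parental replicate 3 (0.0849), and when low genes were also tested (0.0556), while the log2 fold change stayed between -0.46 and -0.26 with each library left out. TCF7L2, the factor named in the series title, had a much lower level than LEF1, at 0.966, 1.63 and 1.19 in OTX P/R libraries and 0.554, 1.16 and 0.564 in parental libraries. The groups overlapped through parental replicate 2, and the difference missed the threshold (log2 fold change 0.37, interval from -0.06 to 0.79, adjusted p = 0.151). Without that library the log2 fold change was 0.53 and the gene was called higher (adjusted p = 0.0467). Adding 1 before the log shrinks the fold changes of low genes such as TCF7L2. The ratio of means, OTX P/R over parental, was 1.66 for TCF7L2 and 0.76 for LEF1. With a pseudocount of 0.1 their log2 fold changes were 0.70 and -0.41, and TCF7L2 again did not pass (limma adjusted p = 0.144).

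The summed level of the 4 TCF/LEF genes was 14.8, 16.4 and 12.3 in OTX P/R libraries and 18.0, 18.9 and 17.8 in parental libraries. LEF1 held 90.9% ± 2.04 of that sum in OTX P/R and 95.3% ± 1.80 in parental cells, and TCF7L2 8.71% ± 1.91 and 4.13% ± 1.74. TCF7, which is abundant in T cells, was between 0.0220 and 0.0895 in OTX P/R and between 0.0325 and 0.144 in parental libraries. TCF7L1, known as a repressor of the pathway in embryonic stem cells, was under 0.01 in every library.

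**Figure D4:**
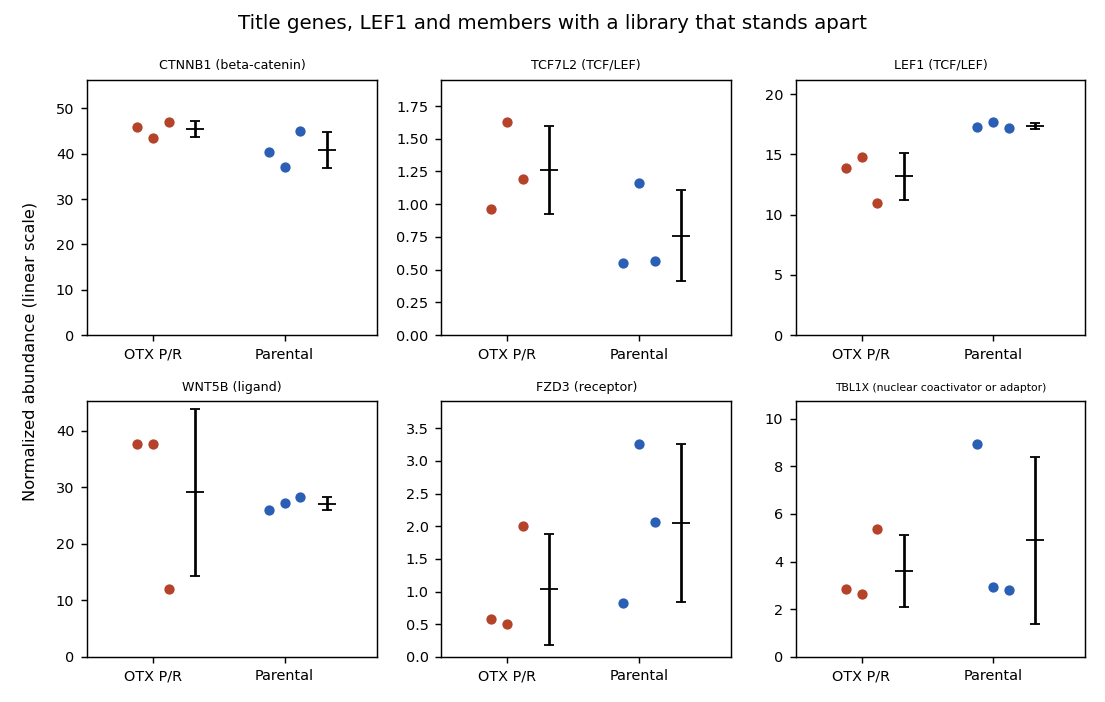
Normalized abundance on a linear scale (y axis) in each library of OTX P/R (left, red) and parental cells (right, blue), with the mean and SD of each group (n = 3), for CTNNB1, TCF7L2, LEF1, WNT5B, FZD3 and TBL1X. TCF7L2 overlaps through parental replicate 2 at 1.16, WNT5B has OTX P/R replicate 3 at 12.1 below all others, and TBL1X has parental replicate 1 at 8.93 above all others.

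Of the proteins that beta-catenin works with in the nucleus, most did not pass. TNIK, a kinase that binds TCF factors and activates their targets, was higher, with 11.1, 10.2 and 11.3 in OTX P/R libraries and 8.44, 6.17 and 8.00 in parental libraries (log2 fold change 0.48 ± 0.11 SE, limma adjusted p = 0.0207). That call was lost without OTX P/R replicate 1 (0.0629) or replicate 3 (0.0653). CTNNBIP1, which encodes ICAT, an inhibitor that keeps beta-catenin from TCF factors, was higher too, with 9.49, 11.1 and 9.68 in OTX P/R libraries and 6.10, 5.27 and 7.81 in parental libraries (0.60 ± 0.14, adjusted p = 0.0177). It was lost without OTX P/R replicate 2 (0.0597) or parental replicate 1 (0.0549).

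BCL9 and BCL9L link beta-catenin to the PYGO proteins, and neither passed. BCL9 was at 1.85 ± 0.295 in OTX P/R and 1.54 ± 0.171 in parental cells, and BCL9L at 5.94 ± 0.477 and 6.08 ± 2.31. PYGO2, which reads methylated histone H3, had 26.5, 25.3 and 24.6 in OTX P/R libraries and 22.5, 23.2 and 23.4 in parental libraries; the groups did not overlap, but the gene did not pass (log2 fold change 0.14, adjusted p = 0.0703), except when low genes were also tested (0.0458). PYGO1 was under 0.02 in every library. TBL1XR1, an exchange factor that swaps corepressors for coactivators, had 11.2, 9.82 and 7.63 in OTX P/R libraries and 12.03, 11.6 and 13.4 in parental libraries and did not pass (log2 fold change -0.35, adjusted p = 0.0977), but was called lower without OTX P/R replicate 1 (0.0465). Its X-linked relative TBL1X had 2.84, 2.62 and 5.36 in OTX P/R libraries and 8.93, 2.91 and 2.83 in parental libraries, where parental replicate 1 set the direction: the log2 fold change was -0.25, and 0.20 without that library.

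The TLE proteins, of the Groucho family, hold TCF targets silent without beta-catenin, and TLE3 was the main one, at 19.2 ± 0.878 in OTX P/R and 19.8 ± 2.23 in parental cells (log2 fold change 95% interval -0.26 to 0.18). TLE4 was at 0.563, 0.996 and 0.247 in OTX P/R libraries and 1.40, 0.734 and 0.256 in parental libraries and was not tested. TLE1 and TLE2 were under 0.03 in every library. Within a group the highest library exceeded the lowest by more than 2-fold for WNT5B, FZD3, TCF7L2, BCL9L and TBL1X, which is 15.6% of the 32 tested members, against 9.20% of all tested genes.

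The binding sequence of TCF and LEF factors was sought in the promoters of the members as CTTTGAA or CTTTGAT and as CTTTGTA or CTTTGTT, on either strand, in the window from 250 bases before to 50 bases after the RefSeq start site. Of the 50 members 37 had an entry, and TCF7, TCF7L2, TLE4 and WNT3 held a match. The 30 bases around each, from RefSeq on GRCh38.p14 and on the strand of the gene, are shown with the match in capitals. They are the letters that a TCF/LEF factor could read near the start sites used here.
TCF7: ggccccactggAACAAAGgaggagagaggc
TLE4: cttattgttgtCTTTGAAgcccctggaagc
TCF7L2: aaaatatcaggCTTTGTTcttttgattgaa
WNT3: tctcaagtggaCTTTGTTccaactattggg
They lie at chr5:134123557-134123586 (plus) for TCF7, chr9:79573052-79573081 (plus) for TLE4, chr10:113126489-113126518 (plus) for TCF7L2 and chr17:46818655-46818684 (minus) for WNT3. The TCF7L2 match belongs to 1 of several start sites of the gene. Whether the matches of TCF7, TLE4 and WNT3 lie at the main starts of these genes was not tested. A match was thus found in 10.8% of the matched members, and in 1 of the 11 called members with an entry, against 16.4% of the 27305 genes with an entry. CACGTG, the E-box bound by MYC and MAX, was found in DVL2, TBL1X and TLE3, or 8.11% of the members against 8.77% of all genes, and in none of the called members with an entry. A match is a description of these letters and not of a bound site.

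NKD2 and FZD2 were the only tested members whose neighbours on the chromosome had a median log2 fold change of 0.3 or more in size. FZD2, on chromosome 17, had 17 of 24 neighbours called lower and none higher, with a median of -0.72. For the other 12 called members the neighbours' medians lay between -0.15 for TNIK and 0.12 for DVL1 and AXIN1, and none of the 9 higher members lay among genes that were higher together. Over all genes with a known position, 14.2% of those called higher and 22.6% of those called lower had neighbours with such a median.

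**Figure D5:**
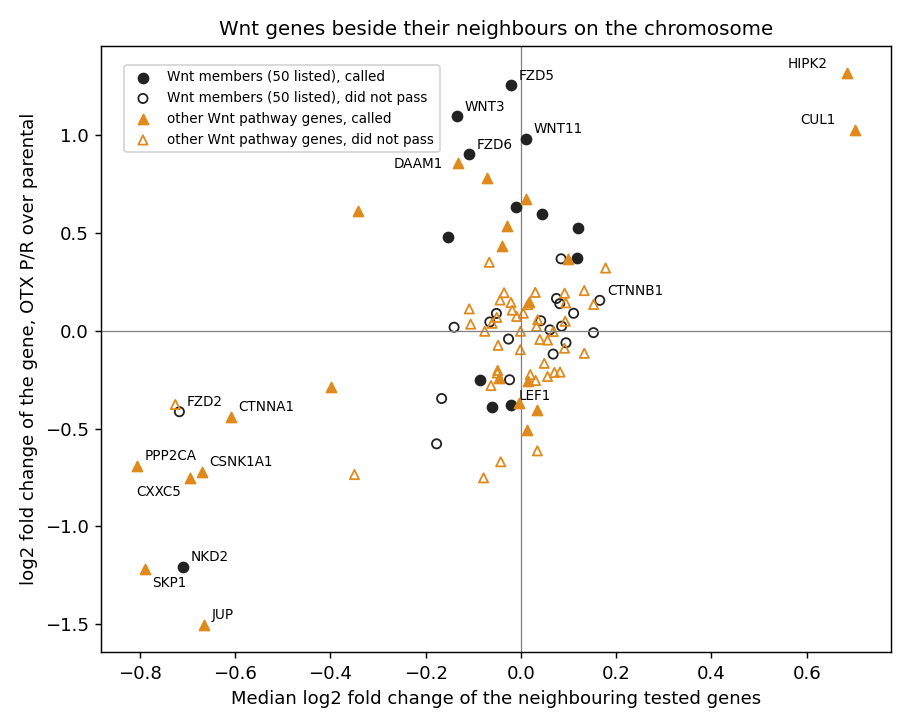
Log2 fold change of each tested Wnt gene, OTX P/R over parental (y axis), against the median log2 fold change of its nearest tested neighbours, up to 12 on each side (x axis), for the members (circles) and the other pathway genes (triangles), filled where called. FZD5, WNT3, WNT11 and FZD6 lie high with neighbours near 0, while NKD2 lies with SKP1, CSNK1A1, PPP2CA, CXXC5 and JUP among lowered neighbours, and CUL1 and HIPK2 among raised ones.

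The rest of the pathway was followed in a list of 109 genes that are no members, of which 66 were tested. In OTX P/R cells 10 were higher, 12 lower and 44 did not pass, or 33.3% called beside the 36.1% of all tested genes, with a median log2 fold change of -0.00. Lower were SKP1, a subunit of the ubiquitin ligase that degrades beta-catenin, at 52.1 ± 9.57 in OTX P/R and 121 ± 2.22 in parental cells; CSNK1A1, the kinase that primes beta-catenin, at 27.4 ± 1.24 and 46.0 ± 6.56; and PPP2CA, the catalytic subunit of protein phosphatase 2A, at 30.3 ± 0.650 and 49.4 ± 1.96. CXXC5, an inhibitor that binds Dishevelled, fell by 0.75 on the log2 scale, and JUP, the catenin of desmosomes, stood at 5.77 ± 0.265 in OTX P/R and 18.3 ± 2.42 in parental cells. These 5 genes lie on chromosomes 5 and 17, and 17 to 22 of 24 neighbours of each were called lower too. SOSTDC1, a secreted antagonist, fell by 0.51 with a neighbours' median of 0.01.

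Among the 10 higher genes of that list, CUL1, the scaffold of the same ubiquitin ligase, was at 36.1 ± 1.07 in OTX P/R and 17.2 ± 1.94 in parental cells, and HIPK2, a nuclear kinase that phosphorylates TCF factors, at 7.38 ± 1.41 and 2.36 ± 0.486. Both lie on chromosome 7, where 20 of 24 neighbours of CUL1 and 18 of 24 of HIPK2 were called higher. SFRP5, a secreted antagonist that binds Wnt ligands, was at 28.5 ± 0.939 and 16.2 ± 1.10, with neighbours near 0. DAAM1, a formin that binds Dishevelled, rose by 0.86 on the log2 scale. The membrane proteins VANGL2 and VANGL1, known for planar cell polarity, rose by 0.67 and 0.61, VANGL1 among neighbours that were lower (median -0.34). The VANGL1 call was lost without OTX P/R replicate 3 (adjusted p = 0.0522), parental replicate 1 (0.0700), 2 (0.0929) or 3 (0.0781) and when low genes were also tested (0.0566). APC, the large scaffold of the destruction complex, stood at 0.615 to 0.865 in OTX P/R and 0.653 to 0.995 in parental libraries and was not tested. Some other genes of the list that were too low to test did not overlap between the groups. Among them, DKK1 was at 0.140 ± 0.0924 in OTX P/R and 1.30 ± 0.194 in parental cells, and WNT2 at 0.115 ± 0.0407 and 1.32 ± 0.188. KREMEN1 went the other way, at 1.49 ± 0.606 in OTX P/R and 0.467 ± 0.0585 in parental cells.

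Of 48 genes known as targets of beta-catenin and TCF in some tissue, 20 were tested, and 10 were higher, 6 lower and 4 did not pass, with a median log2 fold change of 0.23. The share called is above the background of 36.1%, but the list was drawn up with earlier results of these data known. Its counts are therefore given as a description. The lean toward higher genes depended on the filter: when low genes were also tested, 10 of 39 targets were higher and 11 lower. Over all 17367 genes tested that way, 2517 were higher and 2319 lower. EPHB4, a receptor for ephrins, was at 24.4 ± 0.443 in OTX P/R and 6.68 ± 0.541 in parental cells and lies on chromosome 7, where 20 of 24 neighbours were higher. TNFRSF19 was at 4.44 ± 0.883 and 0.278 ± 0.0385, VEGFA at 56.5 ± 16.0 and 16.7 ± 5.14, ENC1 at 35.7 ± 1.25 and 18.6 ± 1.27, and TIAM1, an activator of Rac, at 12.7 ± 1.25 and 7.49 ± 1.44. MSX1, a homeobox factor, was at 5.38 ± 0.385 in OTX P/R cells and at 0 in parental replicates 1, 2 and 3, against which a fold has no meaning.

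Going down were LBH, a transcription cofactor, at 4.84 ± 0.232 in OTX P/R and 19.4 ± 0.509 in parental cells, PTTG1, the securin of mitosis, at 33.5 ± 2.19 and 66.9 ± 2.57, and PPARD at 2.10 ± 0.214 and 4.93 ± 0.225. ID2, an inhibitor of helix-loop-helix factors, fell by 0.77 on the log2 scale, SOX4 by 0.58 and PLAUR by 0.51. PTTG1 lies on chromosome 5, where 18 of 24 neighbours were lower, while SOX4 fell among neighbours on chromosome 6 of which 20 of 24 were higher. The PLAUR call was lost without OTX P/R replicate 1 (adjusted p = 0.0701) or 3 (0.0691) or parental replicate 1 (0.0553) or 3 (0.0598). MYC, the end of the axis in the title, was at 250.5 ± 21.1 in OTX P/R and 185 ± 27.0 in parental cells (log2 fold change 0.45, adjusted p = 0.0336), a call lost without OTX P/R replicate 2 (0.0994) or 3 (0.0953) or parental replicate 2 (0.0640) and when low genes were also tested (0.0584). JMJD6 did not pass, at 18.9 ± 1.85 and 16.9 ± 1.33.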

How the data were processed

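Gene expression was measured by RNA-seq in 3 OTX P/R and 3 parental libraries. The submitters' processing notes name the tools StringTie, HISAT2 and Trim Galore and the build hg19, with no version. What the authors deposited is a signal: StringTie's estimate of abundance for each gene, on a linear scale not stated to be FPKM or TPM. Sorted from high to low, the libraries' values of 1 or more matched within 0.243%, as quantile normalization leaves them. A value therefore tells a gene's rank in its library, and depth, counting intervals and floors cannot be given.

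For 6 genes a value was missing, and they were left out. Groups came from the labels, which name no batch. The 10741 genes that reached a mean of 1 over the libraries were fitted together with limma 3.58.1 (R 4.3.3). The fit used log2(value + 1) and eBayes with a trend, two-sided and Benjamini-Hochberg adjusted. The procedure was also run on simulated data with noise independent between genes and a small share of changed genes. That setting differs from these data, where 36.1% of tested genes were called, so it does not measure the reliability of these calls. Exact permutation of 3 against 3 cannot give a p under 0.1, so p-values come only from limma and measure the spread between these libraries. Some cell type markers are not reported here and are left out of the marker sums. Repeated symbols were represented by the row with the higher mean. The members, the other lists, the markers and the neighbour and promoter descriptions were chosen with earlier results of these data known. Every member is named; of the other lists, up to 6 called genes per direction by size of change, with the genes of the title, and other genes of them were named after their values were seen. Neighbours are the 12 tested genes on each side by the gene order of GENCODE v29, which matched 19528 genes by identifier. Tables used Python 3.11.15, pandas 2.3.3 and NumPy 2.4.6, figures Matplotlib 3.10.9.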

Additional observations from a re-analysis of the deposited data

How the results depend on the processing

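Each choice was changed alone: pseudocounts of 0.1 and 5 on the log scale, testing without a filter on low values, requiring a mean of 5, a robust or untrended variance prior, median centring of libraries, summing repeated symbols, the replicate block, and omission of each library. With a minimum mean of 5, which left 17 members to test, 5 members were higher and 2 lower, and 6 of the other pathway genes were higher. With no filter 10 target genes were higher and 11 lower, and 11 members were higher. Leaving out 1 library, the members called higher numbered 8 to 10 and those called lower 2 to 3, the lower count reaching 2 without OTX P/R replicate 2, parental replicate 2 or parental replicate 3. Of the 13 called members, WNT3, WNT11, PORCN, FZD5, FZD6, DVL1, NKD2 and AXIN1, 8 in all, passed under every alternative in which they were tested. Same-numbered replicates deviated from their group means with correlations of -0.06, -0.03 and -0.00. No pairing by number was visible in these values, but with 3 libraries per group they cannot exclude it. Under the replicate block the members called lower numbered 2, the calls of LRP5, LEF1 and CTNNBIP1 were lost (adjusted p = 0.0571, 0.0514 and 0.0530) and TCF7L2 passed (0.0489). Of the named genes that are no members, MYC (0.0793), VANGL1 (0.0730) and PLAUR (0.0756) also lost their calls under the block. Leaving out 1 library changed the sign of 8 members that had not passed, with log2 fold changes between -0.32 and 0.46 for WNT5B, -0.024 and 0.032 for DVL2, -0.058 and 0.099 for DVL3, -0.061 and 0.060 for GSK3A, -0.0069 and 0.049 for GSK3B, -0.23 and 0.26 for BCL9L, -0.51 and 0.20 for TBL1X, and -0.13 and 0.0084 for TLE3. The lower counts at a mean of 5 and without a library come with fewer genes or samples, and the cause of the other changes was not tested.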
